A study of Mus musculus with 9 samples.

Results

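Expression of 9 genes that separate tissue-resident macrophages from monocytes and the macrophages they give rise to was examined in cells grown from mouse pancreatic tumors. Of these, 5 genes mark resident macrophages (Timd4, Lyve1, Folr2, Cd163 and Vsig4) and 4 mark monocytes and their descendants (Cx3cr1, Ccr2, Ly6c2 and Plac8). The members were chosen by gene symbol, and 8 of the 9 were found among the 18049 genes of the deposited table. No row carried the symbol or the identifier of Timd4, which was therefore not analysed here. The RNA came from 9 lines of MPC (murine primary cells cultured from tumors), all of the WTg genotype, EL1-Luc/EL1-TAg x CAG-Mettl3. In WTg mice the elastase I promoter, active in pancreatic acinar cells, drives luciferase and the SV40 large T antigen, and the ubiquitous CAG promoter drives Mettl3. The parents were FVB/N mice carrying EL1-Luc/EL1-TAg and BL/6 mice carrying CAG-Mettl3, and the age and sex of the donors are not given in the sources used here. Minced tumor was plated, cells that attached were passaged, and single colonies were picked, so each line was a clone. All clones were of the same condition and their treatment label was none, although a protocol field names the PLK1 inhibitor NMS-P937 at 80 nM for 24 h. No clone without the Mettl3 transgene was analysed, so the values below describe how the members vary among WTg clones.

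Macrophages of a tissue have different origins. Some settle there before birth and renew in place, and these often carry the apoptotic cell receptor TIM-4, the hyaluronan receptor LYVE-1, the folate receptor beta and scavenger or complement receptors such as CD163 and VSIG4. Others descend from blood monocytes, which follow CCL2 and related chemokines through the receptor CCR2, carry Ly6C at entry, and turn up CX3CR1, the receptor of fractalkine, as they mature. The split is not strict, since CX3CR1 also marks several resident populations and monocyte-derived cells can take on resident genes with time.

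The deposited log2 values were brought back to read counts scaled per library, called normalized counts here, and the libraries held between 12198036 and 20453901 reads. A read was worth between 1.26 and 2.19 normalized counts, and a floor of 3 reads lay between 3.79 and 6.56, which covers counting error only. Column names gave 3 prefixes of unstated meaning, here A (1 library, the shallowest), B and C (4 libraries each), and the libraries are called A1, B1 to B4 and C1 to C4. Xist was between 29664 and 32912 normalized counts in prefix B and at most 8.39 elsewhere, while the Y-linked gene Ddx3y was between 2376 and 2720 in prefixes A and C and had no read in B, so prefix, sex of the mouse, mouse and any batch cannot be told apart. Mettl3 was at 2184 in A1 and between 468 and 621 in the other 8 libraries. The label calls the cells fibroblasts, and 11 of 12 fibroblast markers were above the floor in every library, but so were all 16 pan-macrophage markers, led by Lyz2 at 407389 ± 81985 (SD, n = 9). The 7 markers of T and B cells and the 4 of NK cells had no row under their symbols, and Epcam, which defines epithelium, had no read in any library. Of the 5 epithelial markers, 2 were above the floor in every library (Krt19, the highest, at 55.2 ± 55.3, and Cdh1, SD, n = 9), and the list summed to between 20.3 and 188 normalized counts. Cdh1 was between 8.91 and 17.1 in prefix B and between 22.4 and 152 in prefix C, without overlap (log2 ratio 1.93, adjusted p = 0.17 from limma). Acinar cell markers summed to 2415 normalized counts in C3 and to 144 to 396 in the other 8 libraries. In bulk RNA, fewer cells of a type and less RNA of a gene per cell cannot be told apart. Whether clones of a prefix came from separate mice is not stated, so every p-value below measures only the spread between these clones.

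Promoter windows from RefSeq (GRCm38.p6, 250 bases before to 50 after a transcript start, on the strand of the gene) were at hand for 8 of the 9 members, Timd4 included and Lyve1 not. Folr2 (chr7:101857141-101857440, minus strand), Cd163 (chr6:124304401-124304700, plus strand) and Vsig4 (chrX:96293389-96293688, minus strand) are shown because their levels separated prefix B from prefix C without overlap. Ly6c2 (chr15:75111922-75112221) and its neighbour Ly6c1 (chr15:75048788-75049087), both on the minus strand, are shown because they are near copies of each other whose reads are hard to tell apart. The start within a window is the outer end of the gene for Folr2, Vsig4 and Cx3cr1, and for the other 5 members with a window and for Ly6c1 it lies 13 to 265 bases inside the gene, the farthest in Ccr2. Capitals mark GAGGAA on either strand, a core that the macrophage factor PU.1 can bind.

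Folr2: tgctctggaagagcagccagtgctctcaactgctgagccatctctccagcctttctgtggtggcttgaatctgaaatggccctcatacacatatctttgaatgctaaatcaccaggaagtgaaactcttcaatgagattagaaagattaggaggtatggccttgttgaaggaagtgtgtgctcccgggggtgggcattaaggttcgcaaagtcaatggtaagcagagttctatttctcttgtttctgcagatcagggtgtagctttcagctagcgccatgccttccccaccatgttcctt
Cd163: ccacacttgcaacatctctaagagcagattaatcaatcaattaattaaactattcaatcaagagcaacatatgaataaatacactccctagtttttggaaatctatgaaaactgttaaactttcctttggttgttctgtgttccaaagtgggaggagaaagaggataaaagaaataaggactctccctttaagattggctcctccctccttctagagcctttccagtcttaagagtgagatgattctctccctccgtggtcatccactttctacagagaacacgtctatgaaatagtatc
Vsig4: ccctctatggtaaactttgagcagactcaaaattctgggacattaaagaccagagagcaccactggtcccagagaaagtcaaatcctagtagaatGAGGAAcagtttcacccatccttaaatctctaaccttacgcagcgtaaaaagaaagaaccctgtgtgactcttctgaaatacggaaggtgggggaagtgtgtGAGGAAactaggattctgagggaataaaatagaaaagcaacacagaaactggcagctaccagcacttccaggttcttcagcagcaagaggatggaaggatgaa
Ly6c2: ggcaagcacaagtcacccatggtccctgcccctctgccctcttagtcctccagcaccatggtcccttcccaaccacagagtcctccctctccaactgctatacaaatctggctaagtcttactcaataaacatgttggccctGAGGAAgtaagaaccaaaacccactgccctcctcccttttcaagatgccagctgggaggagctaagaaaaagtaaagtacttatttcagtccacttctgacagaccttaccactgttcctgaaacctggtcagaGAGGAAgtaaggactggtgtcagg
Ly6c1: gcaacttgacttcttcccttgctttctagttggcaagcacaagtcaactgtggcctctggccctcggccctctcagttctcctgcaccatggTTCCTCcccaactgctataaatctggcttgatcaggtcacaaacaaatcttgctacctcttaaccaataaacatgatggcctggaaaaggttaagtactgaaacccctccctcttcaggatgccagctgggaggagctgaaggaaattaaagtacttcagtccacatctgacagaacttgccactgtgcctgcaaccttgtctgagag

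GAGGAA was in 28.3% of all 32851 windows of this length. Of the 3 genes that separated the prefixes, Vsig4 alone held it, at -155 and -53 from the start of its window's transcript, counted at the first base of each match. Among the monocyte genes, Plac8 held it at -146 and -15 and Ly6c2 at -108 and +27, while Cx3cr1 and Ccr2 held no match. A MAF half-site, TGCTGAC on either strand, was in 4.67% of all windows and in that of Timd4 alone among the 8 members, at -45. The CEBP motif TTGCNNAA, searched on both strands, was in 10.8% of all windows and in none of the 8. Ly6c2 and Ly6c1 matched at 214 of 260 aligned bases (82.3%). A match describes letters in a window only.

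The resident genes were expressed unevenly. Lyve1 (ENSMUSG00000030787, chr7:110850607-110862953 with its introns in RefSeq's GRCm38.p6, as for all positions below), a receptor for hyaluronan on resident macrophages and lymphatic vessels, was close to the detection floor. It was at 13.1 normalized counts in A1, at 6.36, 7.12, 4.34 and 7.57 in B1 to B4 and at 14.2, 21.9, 4.20 and 1.48 in C1 to C4. These values rest on 54 reads in all, 6 of 9 libraries lay above the floor, and the prefixes overlapped. The variance between clones was 2.95 times that of counting alone. With only 1 to 14 reads per library, this gene could be detected but hardly ranked among clones at this depth. Of the 4 markers of lymphatic endothelium 3 were in the table, and they summed to between 2982 and 6754 normalized counts. Most of that was Pdpn, podoplanin, which fibroblasts also make, at 5243 ± 1400.3, while Flt4 was at 46.2 ± 33.7 and Prox1 at 13.1 ± 5.65 (SD, n = 9). The part of such cells in the Lyve1 reads was not tested.

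Folr2 (ENSMUSG00000032725, chr7:101839988-101857190), the folate receptor beta, was well above the floor in every clone. Its level was 1120 normalized counts in A1, 1758, 1633, 1754 and 1488 in B1 to B4, and 1136, 794, 611 and 1016 in C1 to C4. Every prefix B library exceeded every other library. The mean was 1257 ± 421 (SD, n = 9), with 1658 ± 128 in prefix B and 889 ± 233 in prefix C (SD, n = 4 each), and the variance was 96.5 times that of counting.

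Cd163 (ENSMUSG00000008845, chr6:124304636-124330529), the scavenger receptor for haptoglobin-bound hemoglobin, was low. It was at 4.38 normalized counts in A1, which rest on 2 reads, at 35.6, 21.4, 31.8 and 22.7 in B1 to B4 and at 10.3, 7.80, 12.6 and 16.2 in C1 to C4. All 4 prefix B libraries again lay above all others, with 27.9 ± 6.95 against 11.7 ± 3.58 in prefix C (SD, n = 4 each). The whole series of clones held 118 reads of this gene.

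Vsig4 (ENSMUSG00000044206, chrX:96247201-96293438), a complement receptor of Kupffer cells and other resident macrophages, varied most among the members. It was at 2.19 normalized counts in A1, a single read, at 319, 149.5, 360 and 136 in B1 to B4, and at 69.9, 6.24, 21.0 and 0 in C1 to C4. Prefix B stood above all other libraries, and the range within prefix C ran from no read to 54 reads. The SD of log2 values over the 9 clones was 3.06, above that of 99.7% of genes whose mean reached 10 normalized counts. Vsig4 lies on the X chromosome, and the prefixes also differ in Xist as given above. The part of that difference in the Vsig4 values was not tested.

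**Figure D1:**
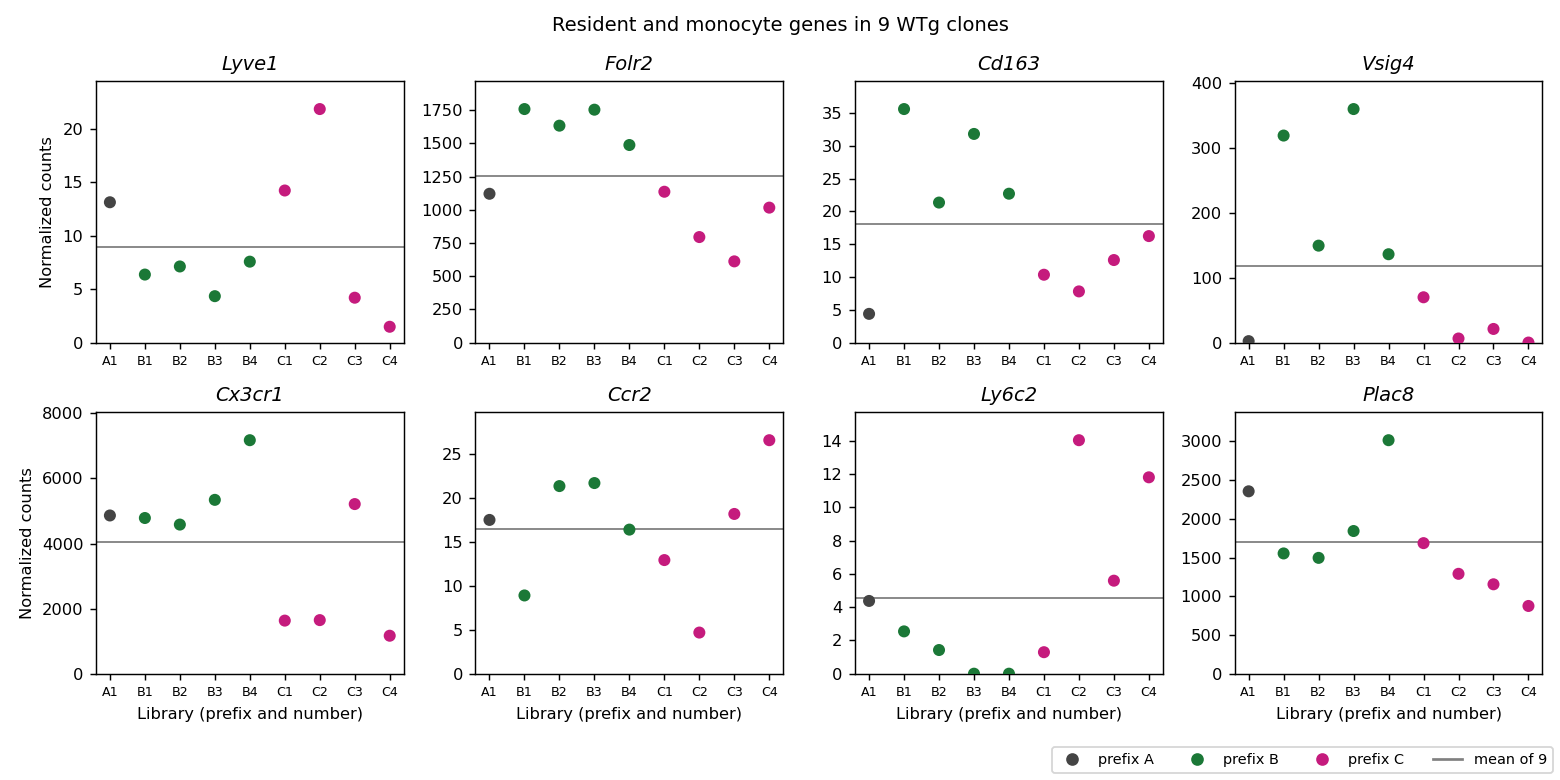
Normalized counts (vertical axis, linear from 0, a scale of its own in each panel) of the 8 members found in the table, by library (horizontal axis), with points coloured by prefix and a line at the mean of the 9 clones. Folr2, Cd163 and Vsig4 are higher in every prefix B library than in any other, and Cx3cr1 is low in C1, C2 and C4 but not in C3.

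The genes of the monocyte side did not form a common pattern. Cx3cr1 (ENSMUSG00000052336, chr9:120048683-120068296), the fractalkine receptor, was expressed in all clones. It was at 4862 normalized counts in A1, at 4784, 4583, 5342 and 7176 in B1 to B4 and at 1631, 1647, 5213 and 1167 in C1 to C4. The values fell into a high set of 6 libraries and a low set of 3, with C3 in the high set apart from the rest of its prefix. C3 was 3.52 times the mean of the other 3 prefix C libraries, which was 1482 ± 273 (SD, n = 3). C3 is also the library with the acinar transcripts, and their part in its Cx3cr1 level was not tested.

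Ccr2 (ENSMUSG00000049103, chr9:124101918-124109140), through which classical monocytes answer CCL2, was low everywhere. Its level was 17.5 normalized counts in A1, 8.91, 21.4, 21.7 and 16.4 in B1 to B4 and 12.9, 4.68, 18.2 and 26.6 in C1 to C4. The prefix B range lay inside that of prefix C, and 8 of 9 libraries were above the floor. The mean of 16.5 ± 6.77 (SD, n = 9) had a variance 1.87 times that of counting, the smallest ratio among the members.

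Ly6c2 (ENSMUSG00000022584, chr15:75108161-75112066), which encodes the Ly6C antigen of inflammatory monocytes, was nearly absent. It had 2 reads in A1, 2, 1, 0 and 0 reads in B1 to B4, and 1, 9, 4 and 8 reads in C1 to C4. Only C2, C3 and C4 exceeded the floor, at 14.0, 5.60 and 11.8 normalized counts. Ly6c1 (ENSMUSG00000079018, chr15:75044018-75048920), its near copy, was counted far more often, with 3994 reads against 27. Its level was 875 normalized counts in A1, 365, 444, 44.9 and 227 in B1 to B4 and 171, 1246, 474 and 2237 in C1 to C4. Ly6c2 made up 0.671% of the reads given to both genes together, and between 0% and 1.17% in a single library. The share was thus small in each library, also where Ly6c1 was highest. Reads that match both copies have to be divided or dropped in counting, so the low Ly6c2 values are uncertain and cannot be read apart from Ly6c1.

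Plac8 (ENSMUSG00000029322, chr5:100551589-100572253), a small cysteine-rich protein of monocytes and other myeloid cells that some epithelia also express, was abundant in every clone. It was at 2355 normalized counts in A1, at 1552, 1495, 1842 and 3014 in B1 to B4 and at 1686, 1289, 1154 and 874 in C1 to C4. The prefixes overlapped only through C1, which lay above B1 and B2. The mean was 1696 ± 651 (SD, n = 9). No order of level among the members is given, because levels of different genes compare only per length and exonic lengths were not at hand.

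Prefix C was compared with prefix B to see which members vary with the way the clones were labelled. None of the 8 members passed limma at an adjusted p under 0.05 (Benjamini-Hochberg over 16962 genes), and 0 also passed with limma's voom on recovered reads. Over all genes, 29 passed (0.171%), of which 12 were lower in prefix C (0.0707%) and 17 higher (0.100%), and voom called 20. At an unadjusted p under 0.05, 6 of the 8 members were included, against 18.6% of all genes. The log2 ratio of prefix C to prefix B was -0.93 for Folr2 (standard error 0.18, adjusted p = 0.11 from limma). For Cd163 it was -1.19 (standard error 0.31, adjusted p = 0.16 from limma) and for Cx3cr1 -1.42 (standard error 0.41, adjusted p = 0.17 from limma). Vsig4 had the greatest ratio in size, -4.42 with a standard error of 1.14 (adjusted p = 0.16 from limma), which depends on the pseudocount because C4 had no read, and was -3.76 with a pseudocount of 4. It moved to -3.30 without C4 and to -5.35 without C1, and leaving out each library in turn gave adjusted p from 0.088 to 0.37 from limma. Plac8 was at -0.64 and Ccr2 at -0.27, Lyve1 at 0.18 and Ly6c2 at 2.10, with adjusted p from 0.20 to 0.90 from limma. The ratio of Ly6c2 also depends on the pseudocount and was 1.17 with a pseudocount of 4. The median over the 8 members was -0.79 and over all genes -0.017. Ccr2 changed sign, to 0.12, when libraries were scaled to the pan-macrophage markers.

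Groups did not overlap, with every prefix C library under every prefix B library, for 3 of the 8 members, Folr2, Cd163 and Vsig4, and for 5.25% of all genes. In the opposite direction this held for none of the 8 members and for 4.24% of all genes. All 3 are resident genes and none of the 4 monocyte genes was among them, a difference that was not tested. Lyve1, also a resident gene, overlapped. Of the 16 pan-macrophage markers, 3 (18.8%) did not overlap and were lower in prefix C (Adgre1, C1qb and Mertk), and 0 were higher. Scaling to the pan-macrophage markers without Lyz2 was added after the values were seen, because these markers moved with the prefix. Their sum without Lyz2 was between 296040 and 373608 normalized counts in prefix B and between 208442 and 285021 in prefix C. That scaling raised the median log2 ratio of all genes to 0.40 and turned the split of calls from 12 lower and 17 higher into 2 lower and 57 higher. The log2 ratio was then -0.51 for Folr2, -0.80 for Cd163, -4.02 for Vsig4 and -1.0 for Cx3cr1, with adjusted p between 0.057 and 0.089 from limma. Unadjusted p from limma rose with that scaling, from 0.00063 to 0.031 for Folr2 and from 0.0045 to 0.021 for Cd163. It rose from 0.0041 to 0.0052 for Vsig4 and from 0.0081 to 0.035 for Cx3cr1. Over all genes, the number with an unadjusted p under 0.05 went from 3148 to 7799, and adjusted p depends on that number. Per 1000 normalized counts of the whole pan-macrophage list, Lyz2 included, Folr2 was between 2.10 and 2.25 in prefix B and between 1.09 and 1.96 in prefix C, so its groups did not overlap on that scale either. The same held for Cd163 and Vsig4. Lyz2 made up 58.6% of that list and had a log2 ratio of -0.19 (adjusted p = 0.76 from limma). This scale therefore adjusts little for the shift of the other markers, and overlap was not examined without Lyz2.

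The comparison rested on C3 more than on any other library. Without it, 242 of 16962 genes passed limma, 149 of them lower in prefix C. The calls included 2 of the 8 members, Cx3cr1 and Folr2. This omission removed the prefix C library whose own Cx3cr1 stood apart, at 5213 normalized counts against 1482 ± 273 in the others (SD, n = 3). Cx3cr1 then had a log2 ratio of -1.88 (standard error 0.19, adjusted p = 0.012 from limma) and Folr2 one of -0.77 (standard error 0.13, adjusted p = 0.042 from limma). Leaving out any other library gave between 9 and 24 calls over all genes and none among the members.

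**Figure D2:**
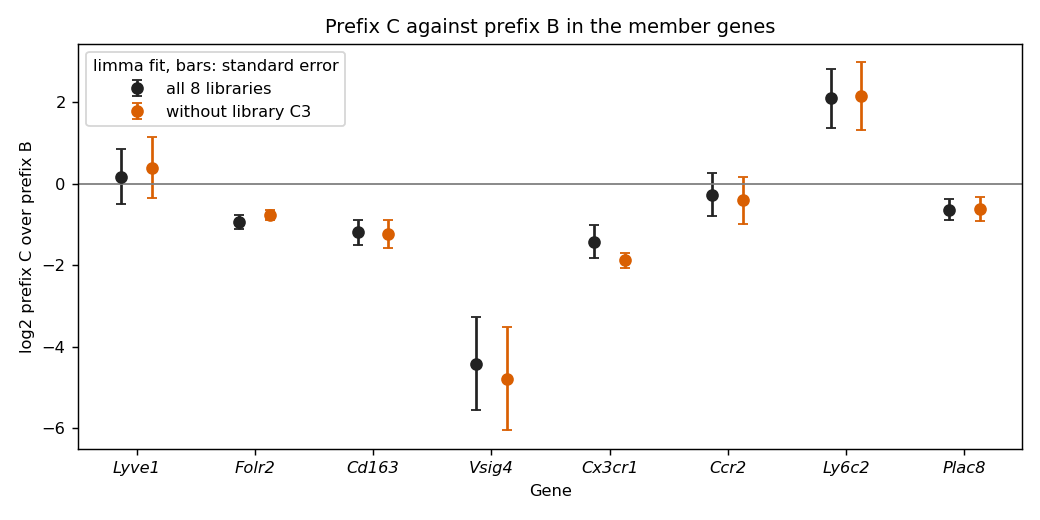
Log2 ratio of prefix C to prefix B (vertical axis) of each member (horizontal axis) from limma, with all 8 libraries and without C3, where bars are 1 standard error. Leaving out C3 moves Cx3cr1 from -1.42 to -1.88 and narrows its error from 0.41 to 0.19, while the other members move by less than their errors with all 8 libraries.

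The ligands of the chemokine receptors among the members were present in all clones. Ccl2 and Ccl7, which draw CCR2-bearing monocytes, were higher in some prefix C libraries. Ccl2 was at 2611 normalized counts in A1, at 615, 994, 715 and 612 in B1 to B4 and at 2694, 3638, 616 and 3279 in C1 to C4. Ccl7 was at 1906 in A1, at 257, 629, 278 and 270.0 in B1 to B4 and at 1319, 3055, 419.7 and 2450 in C1 to C4. For both genes C1, C2 and C4 exceeded every prefix B library and C3 lay within the prefix B range. Ccl8 and Ccl12, further CCR2 ligands of the mouse, were lowest in C3, at 16.8 and 44.8, and highest in C4, at 338 and 1122. Cx3cl1, which encodes fractalkine, was at 156 ± 64.1 normalized counts (SD, n = 9), with 247 in A1, 57.9 to 219 in prefix B and 131 to 175 in prefix C. The log2 ratio of prefix C to prefix B was above 0 for all 5 ligands, with a median of 1.55. Of the 5, 0 passed limma at an adjusted p under 0.05. At an unadjusted p under 0.05, 2 were included (Ccl2 and Ccl7), against 18.6% of all genes. C3 thus stood with prefix B in Cx3cr1 and in Ccl2 and Ccl7, and below all of prefix B in Folr2.

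**Figure D3:**
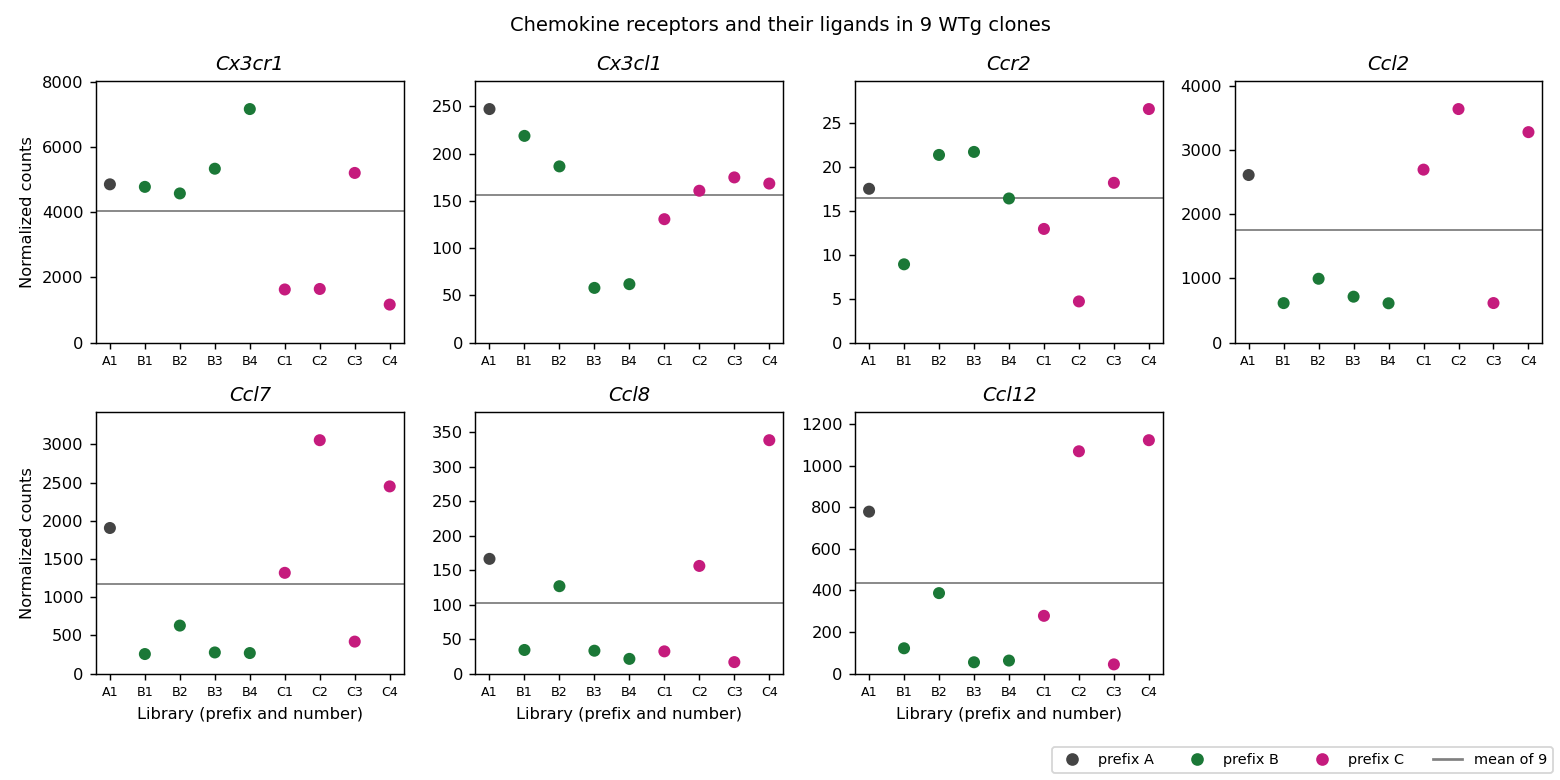
Normalized counts (vertical axis, linear from 0, a scale of its own in each panel) of the receptors Cx3cr1 and Ccr2 and of their 5 ligands, by library (horizontal axis), coloured by prefix, with a line at the mean of the 9 clones. Ccl2 and Ccl7 are high in A1, C1, C2 and C4 and low in C3 and all of prefix B.

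Relations among the members were computed across the 9 clones for the 6 members whose mean reached 10 normalized counts. Over 27 relations, of which 15 were between members and 12 with a summed marker list, 0 passed an adjusted p under 0.05 by Pearson's r or Spearman's rho (exact permutation tests, two-sided), and 4 did by r and 6 by rho at an unadjusted p under 0.05. Between members, r ran from -0.058 to 0.718, the highest being that of Cd163 with Vsig4 (rho 0.783, exact permutation p = 0.031 for r and 0.017 for rho, adjusted 0.20 and 0.093, n = 9). Centred within prefixes B and C it was -0.193 (exact permutation p = 0.78, n = 8), and 0.565 without the 2 libraries farthest from the median, so the relation did not hold within prefixes. Folr2 with Vsig4 had r = 0.664 and rho = 0.833 (exact permutation p = 0.053 and 0.0083, adjusted 0.20 and 0.093, n = 9), 0.792 without the 2 libraries farthest from the median and 0.0145 within prefixes. Folr2 with Cd163 had r = 0.655 and rho = 0.767 (exact permutation p = 0.057 and 0.021, adjusted 0.20 and 0.096, n = 9), 0.742 without the 2 farthest libraries and 0.226 within prefixes. With the fibroblast markers, Cd163 had r = -0.782 and rho = -0.783 (exact permutation p = 0.013 and 0.017, adjusted 0.19 and 0.093, n = 9), with -0.755 without the 2 libraries farthest from the median and -0.613 within prefixes. Vsig4 had r = -0.770 and rho = -0.867 with the same markers (exact permutation p = 0.014 and 0.0045, adjusted 0.19 and 0.093, n = 9), and r was -0.505 within prefixes. Folr2 with these markers had r = -0.661 and rho = -0.800 (exact permutation p = 0.052 and 0.014, adjusted 0.20 and 0.093, n = 9), with -0.811 without the 2 libraries farthest from the median and -0.410 within prefixes. Without the 2 libraries farthest from the median of Vsig4, r of Vsig4 was -0.898 with the fibroblast markers (adjusted p = 0.046) and 0.921 with the pan-macrophage markers (adjusted p = 0.0054, exact permutation tests, n = 7). With all 9 clones the latter was 0.145, and within prefixes it was -0.684, so no direction is read from it. The pan-macrophage sum was 58.6% Lyz2 over the 9 clones. It was highest in C4, at 862332 normalized counts, where Vsig4 had no read. The relation of Vsig4 with the other 15 markers alone was not computed. Folr2 had r = 0.696 and rho = 0.600 with the pan-macrophage markers (exact permutation p = 0.040 and 0.097, adjusted 0.20 and 0.26, n = 9), 0.551 without the 2 libraries farthest from the median and 0.480 within prefixes.

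Folr2 and Cx3cr1, a gene from each side, were also compared inside the prefixes. In prefix B the library with the most Cx3cr1, B4, had the least Folr2, and in prefix C the library with the most Cx3cr1, C3, also had the least Folr2, while the other 3 libraries of either prefix did not follow a strict opposite order. Pooled over the 9 clones r was 0.390 and rho 0.267 (exact permutation p = 0.30 and 0.49, adjusted 0.52 and 0.74), and without the 2 libraries farthest from the median r was 0.761. Centred within prefixes, r was -0.839 and rho -0.762 (exact permutation p = 0.045 and 0.030 over 8 libraries, adjusted 0.61 and 0.47). The sign thus turned with the prefix, and neither value passed after adjustment.

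**Figure D4:**
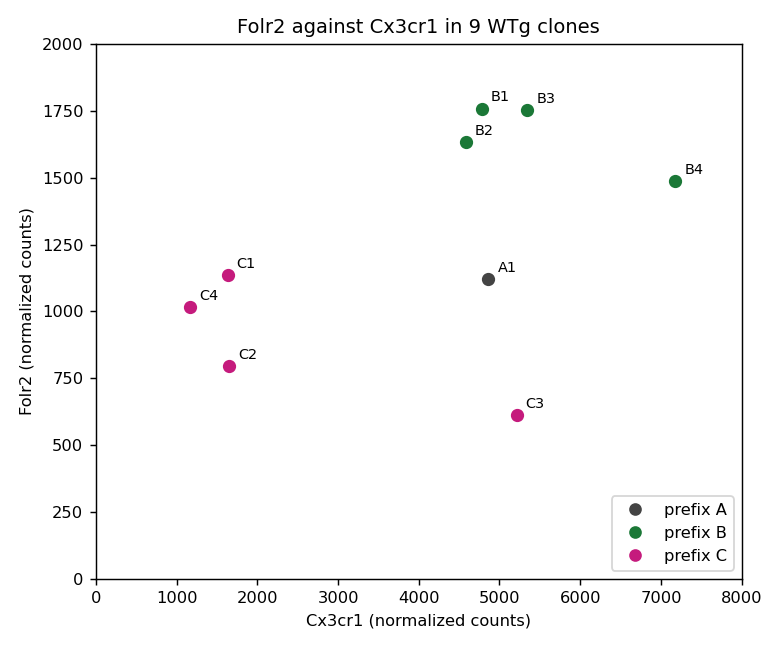
Normalized counts of Folr2 (vertical axis) against Cx3cr1 (horizontal axis), both linear from 0, in the 9 clones, each point a library coloured by prefix. Within each of prefixes B and C the point farthest to the right, B4 and C3, is also the lowest, while prefix B as a whole lies above prefix C.

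Further genes of each kind gave the setting of the members. Of 22 other resident macrophage genes, 19 were in the table and 17 were above the floor in every library, while Sall1, a microglial factor, was above it in none. Of the 18 tested, 16 had a log2 ratio of prefix C to prefix B below 0, with a median of -0.49 against -0.017 over all genes. Of these 18, 5 did not overlap between the prefixes, all lower in prefix C, against 5.25% of all genes. Mertk, Marco, Stab1 and F13a1 were among the 5, and Mertk is also on the pan-macrophage list. Stab1, a scavenger receptor of resident macrophages and sinusoidal endothelium, was lower in prefix C by limma. It was at 59278 ± 7681 normalized counts in prefix B and at 32056 ± 2816 in prefix C (SD, n = 4 each), a log2 ratio of -0.88 (standard error 0.13, adjusted p = 0.0496 from limma). That call was made in 4 of 16 settings, with adjusted p from 0.038 to 0.17 from limma, so it lies at the threshold. F13a1, coagulation factor XIII A of resident and monocytic cells, had a log2 ratio of -2.26 (standard error 0.53, adjusted p = 0.14 from limma). Mrc1, the mannose receptor, overlapped fully, from 14328 to 32832 in prefix B and from 14215 to 32723 in prefix C. Tmem119 and Cbr2 were the 2 with a ratio above 0, both at 0.78.

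Of 18 other monocyte genes, 14 were in the table and 12 of them above the floor in every library, and none of the 14 passed limma. Their median log2 ratio was 0.32, with 8 above 0 and 6 below. Ace, a marker of nonclassical monocytes, and Thbs1, thrombospondin 1, which fibroblasts also make, did not overlap and were higher in prefix C, and Mgst1 did not overlap and was lower. Over all genes, 4.24% did not overlap and were higher in prefix C, and 5.25% did not overlap and were lower. S100a8, which marks neutrophils and inflammatory monocytes, was at 14.6 ± 8.22 normalized counts (SD, n = 9). No row carried the symbols Chil3, S100a9 or Cd177. At an unadjusted p under 0.05, 6 of the 14 were included, against 18.6% of all genes. Among 13 genes of monocyte-derived tissue macrophages, all in the table, 11 were above the floor in every library and Nos2, the inducible nitric oxide synthase, in none. Their median log2 ratio was -0.12, none passed limma, and 2 had an unadjusted p under 0.05, against 18.6% of all genes. Trem2 alone did not overlap, lower in prefix C, against 5.25% of all genes.

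All pan-macrophage markers and most fibroblast markers moved in opposite directions between the prefixes beside these lists. All 16 pan-macrophage markers had a log2 ratio of prefix C to prefix B below 0 (median -0.37), and 9 of 12 fibroblast markers had one above 0 (median 0.65). The fibroblast markers below 0 were Lum at -2.07, Dcn at -1.79 and Fap at -0.20. None of either list passed limma, and 10 and 6 had an unadjusted p under 0.05, against 18.6% of all genes. Dcn, lower in prefix C, was among these 6. The sum of the pan-macrophage list was between 709700 and 809010 normalized counts in prefix B, between 550358 and 862332 in prefix C and 665747 in A1. That of the fibroblast list was between 349734 and 569682 in prefix B, between 484514 and 934353 in prefix C and 758158 in A1. Both sums overlapped between the prefixes. Lyz2 made up 58.6% of the pan-macrophage sum over the 9 clones. The sum of the other 15 markers did not overlap, at 296040 to 373608 in prefix B and 208442 to 285021 in prefix C. The part of either cell type in the lower resident genes of prefix C was not tested. A1, with the lowest Cd163 of all clones and a single read of Vsig4, had Folr2, Cx3cr1 and Plac8 within the range of the other 8 libraries.

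**Figure D5:**
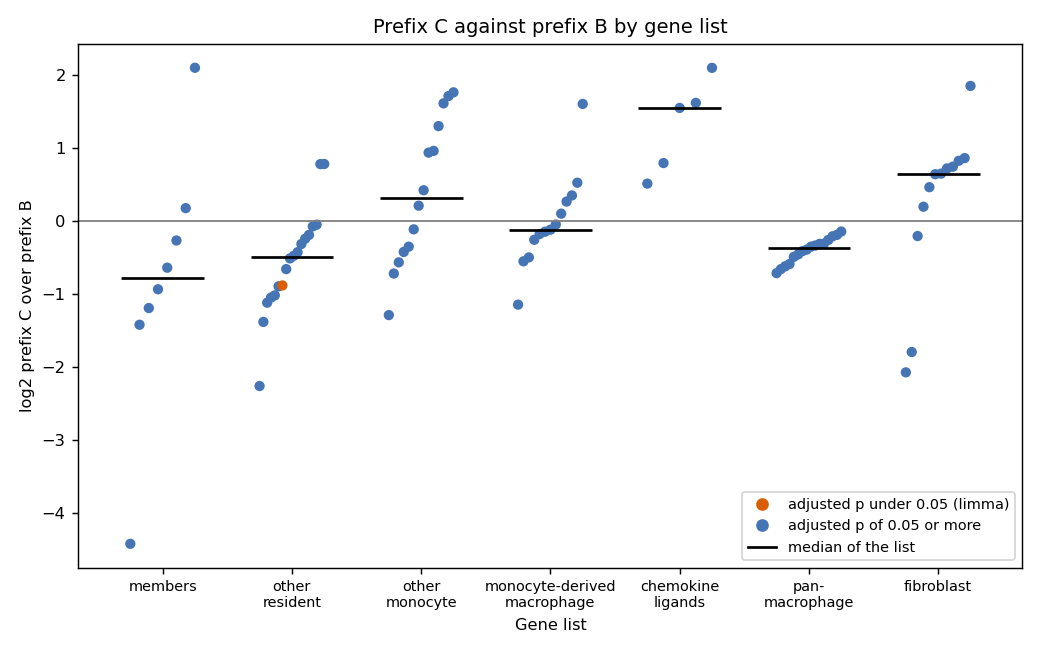
Log2 ratio of prefix C to prefix B (vertical axis) of each gene of the members and of 6 further lists (horizontal axis), from limma, with a bar at the median of each list. The medians are -0.79 for the members, -0.49 for other resident genes, 0.32 for other monocyte genes and -0.37 for pan-macrophage markers, and Stab1 is the only gene of these lists with an adjusted p under 0.05.

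The genes whose levels over the 9 clones were most like those of a member were found by Pearson's r among 14704 genes, as a description with no test, since with 9 points high values arise among so many genes. For Cd163 they were Mertk, the apoptotic cell receptor of macrophages (r = 0.991), Tmem106c (0.988) and Zfp414 (0.986). After centring within prefixes, r with Mertk was 0.949 and its rank among the genes compared was 47. Cd163 rests on 118 reads in all. Vsig4 was most like Taf6 (0.973), Myrf (0.968) and Slc5a6 (0.960), and Folr2 most like Gm45844 (0.951), Fbxl16 (0.943) and Tmed7 (0.940). For Cx3cr1 they were Phka2 (0.951), Itgb5 (0.946) and Stag2 (0.944), and Phka2 kept 0.950 after centring. Ccr2 was most like Pecam1 (0.930), Arel1 (0.928) and Slx4ip (0.906), but Ccr2 and Pecam1 rest on 102 and 66 reads in all. Plac8 was most like Ccdc149 (0.918), Rnf214 (0.918) and Rab27b (0.884). Of the resident list, Mertk, which is also on the pan-macrophage list, is the only gene among these 18.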

How the data were processed

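Stranded mRNA libraries (TruSeq) of 9 WTg clones were sequenced. The authors deposited 1 log2 value per gene and library, the log2 of a scaled read count with an offset of 4. The submitters' processing notes name FastQC 0.11.9, STAR 2.7.10, RSEM 1.3.3 and the GRCm38 build, and the scaling is not given in the sources used here. The table holds 6 further columns of per-sample values, which were not used. To obtain normalized counts the log2 was reversed and the offset of 4 removed. The value of a read came from the spacing of low values, and 100% of nonzero values under 1000 reads were whole within 0.1 read, so voom was also run on recovered reads. Counts estimated by RSEM need not be whole, so the recovered reads may be rounded estimates, which is not stated. The most similar libraries, B1 and B4, differed over 15353 genes with a chi-square 22.6 times its degrees of freedom.

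Prefix C was compared with prefix B by limma 3.58.1 (lmFit, eBayes with trend, R 4.3.3) on log2(normalized counts + 1), among genes whose mean reached 1 normalized count, so the fold change of a low gene is understated. Relations used all 362880 pairings of 9 clones, or the 576 within prefixes, with Benjamini-Hochberg adjustment over 27 relations (scipy 1.17.1). The fits were tested on simulated data. Where a gene had several promoter windows, the outermost of those given was taken. The genes named are the members, their ligands, Ly6c1, marker and macrophage lists, and the 3 genes most like each member, all chosen with earlier results of these data known. Alternatives were other pseudocounts, filters, scalings, variance models and omitted libraries.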

Additional observations from a re-analysis of the deposited data

Results flagged for a closer look

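A set of genes was examined for a library far from the other 8, by the 95% limit of Dixon's test. The test uses the gap between the outermost value and its neighbour. The set held the members, their ligands, Ly6c1, Mettl3, the genes most like a member and further genes chosen for the text. Genes with at most 3 reads in each library were left out. Of the 57 genes examined, among them 8 members, 8 had such a library, and none of those was a member. The 2.85 expected from the 95% limit holds only for unrelated genes with normally distributed values. Here the levels were not log transformed, and the genes were chosen with earlier results of these data known. No comparison with chance is therefore drawn.

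Of the 8 genes with such a library, 4 were highest in C4. Ccl8, a ligand of CCR2, was at 338 normalized counts there against 166 in the next library, a gap of 0.535 of the range. Pecam1, an endothelial marker, was at 34.0 against 14.5, a gap of 0.574, and rests on 23 reads there. Cdh1, an epithelial cadherin, was at 152 against 54.3, a gap of 0.683, and Cbr2, of the resident list, was at 669 against 389, a gap of 0.497.

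Both genes that stood out in C3 belong to MHC class II presentation. Cd74 was at 3058 normalized counts there against 461, a gap of 0.855, and H2-Ab1 at 665 against 245, a gap of 0.661. Marco, a scavenger receptor of the resident list, was highest in B3, at 187 against 79.5, a gap of 0.602. Mettl3 was highest in A1, at 2184 against 621, a gap of 0.911.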

How the results depend on the processing

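No paired analysis was possible because there is only the WTg group, with no number shared between groups. The order of the members by level was not run, since exonic lengths were not at hand. The count of 29 genes called between prefixes B and C became 19 with no filter on low genes (9 lower in prefix C, 10 higher), 17 without a mean-variance trend (7 and 10) and 59 with scaling to the pan-macrophage markers (2 and 57), an alternative added after the data were seen. When each library was left out in turn it ran from 9 to 242, with 2 to 149 lower and 7 to 93 higher in prefix C, and the number of members called from 0 to 2. The number of relations past the threshold was 2 without the 2 libraries farthest from the median and 0 under the other 4 alternatives. The cause of these changes was not tested. The level of each member moved by at most 0.160 SD under 3 alternatives of scaling or libraries.

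The log2 ratio of Lyve1 turned from 0.18 to -0.12 without C1 and -0.32 without C2, within a range up to 0.75, and that of Ccr2 from -0.27 to 0.18 without C2 (lowest -0.58) and 0.12 with pan-macrophage scaling. The sign of r turned to -0.015 for Cd163 with Plac8 after upper quartile scaling. For Plac8 with the pan-macrophage markers it turned to 0.0081 without A1 and to 0.454 without the 2 farthest libraries. The latter also gave 0.557 for Vsig4 with Ccr2 and 0.0475 for Ccr2 with the fibroblast markers. Centring within prefixes turned r to -0.839 for Folr2 with Cx3cr1, -0.031 for Folr2 with Plac8, -0.193 for Cd163 with Vsig4, -0.065 for Cd163 with Cx3cr1, -0.518 for Cd163 with Plac8, -0.684 for Vsig4 and -0.559 for Cx3cr1 with the pan-macrophage markers. Depth limits Ly6c2, Lyve1, Ccr2 and Cd163, which rest on 27 to 118 reads each over the 9 libraries.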

Other observations

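Cd74 and H2-Ab1, a pair of genes of MHC class II presentation, were highest in C3. Cd74, the invariant chain of MHC class II, was at 19.7 normalized counts in A1, at 99.7 to 461 in prefix B, at 71.1, 43.7 and 443 in C1, C2 and C4, and at 3058 in C3. H2-Ab1, which encodes a class II chain, was at 665 in C3 and between 29.9 and 245 in the other 8 libraries. C3 is the prefix C library with the high Cx3cr1, the low Folr2 and the acinar transcripts. Between prefixes neither gene passed limma (log2 ratio 0.53 for Cd74 and 1.61 for H2-Ab1, adjusted p = 0.84 and 0.28). Spp1, osteopontin of monocyte-derived macrophages and other cells, was lowest in C3, at 27264, and highest in A1, at 195956.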
